A study of Drosophila melanogaster with 4 samples.

Results

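The regions enriched for histone H3 dimethylated at lysine 27 (H3K27me2) on chromosome arm 3R of Drosophila melanogaster were mapped outside the centromere-proximal 2 Mb. Members were the regions on 3R whose midpoint lay beyond the first 2000000 bp. They numbered 2035 of 10114 regions in the list of ChIP replicate 1, 2080 of 10115 in the list of ChIP replicate 2 and 3067 of 16728 in the list for the whole series. The stretch ran from just beyond base 2000000 to base 27905053 (25.9 Mb, FlyBase release 5, 1-based), and it is called euchromatin here by its position alone.

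The chromatin came from heads of wild-type Oregon-R flies, labelled mixed adult with no sex given, which were raised in population cages and given no treatment. Heads hold neurons, glia, eye tissue and other cells, so each value is a mix over cell types. The series held 2 ChIP samples, precipitated with the antibody Ab24684, and 2 inputs. The labels tie each input to 1 ChIP replicate. The labels do not say whether the flies of each replicate were collected separately, so their spread may be technical, and with 1 group of 2 replicates no test between groups could be made.

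H3K27 methylation is placed by Polycomb repressive complex 2, whose catalytic subunit in flies is Enhancer of zeste. Trimethylated H3K27 marks silenced developmental genes such as the Hox genes, and dimethylated H3K27 is known as a more widespread mark of chromatin that is neither strongly transcribed nor held in the trimethylated state. Arm 3R carries both Hox clusters of the fly: RefSeq's gene table for Release 6 places lab, pb, Dfd, Scr and Antp of the Antennapedia complex and Ubx, abd-A and Abd-B of the bithorax complex on 3R. That table is of another release than the lists, so no gene was set on the map and no sequence was read from it.

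Enriched regions covered 20.8% of 3R euchromatin in replicate 1 and 19.9% in replicate 2. The mean was 20.3% ± 0.635 (SD, n = 2). The bases covered were 5.38 Mb and 5.14 Mb. The regions were short and close together, with a median length of 1983 bp in replicate 1 and 1942 bp in replicate 2 and a median distance to the next region of 3479 bp and 3182 bp. The longest region spanned 20791 bp in replicate 1 and 14227 bp in replicate 2, and regions of 10 kb or more numbered 25 and 16. The series' list was wider. It covered 43.5% of the stretch, its longest region spanned 108653 bp, and 172 of its regions were 10 kb or longer.

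The limit at 2 Mb fell inside the last region left out in replicate 1 and in the series' list. In replicate 2 it fell just beyond the end of that region. The last region left out in replicate 1 ran from 1997527 to 2001317 with a score of 1.02, and the first region kept ran from 2009683 to 2013172 with a score of 0.63. In replicate 2 the last region left out ended at 1999987 (score 0.67) and the first kept began at 2009024 (score 0.69). In the series' list the last left out ended at 2001475 (score 0.75) and the first kept began at 2007511 (score 0.54).

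The map along the arm was uneven at the scale of 100 kb. Over 259 full windows of 100 kb, cover ran from 0% to 77.6% in replicate 1, with a median of 18.6%. In replicate 2 it ran from 0% to 76.0%, with a median of 17.6%. The middle of the distribution was broad: the 25th and 75th percentiles were 9.57% and 30.2% in replicate 1 and 8.31% and 28.4% in replicate 2. The SD over windows of the replicate mean was 14.0 percentage points. The differences between the replicates in the same windows had an SD of 6.78 points, less than the SD over windows.

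**Figure D1:**
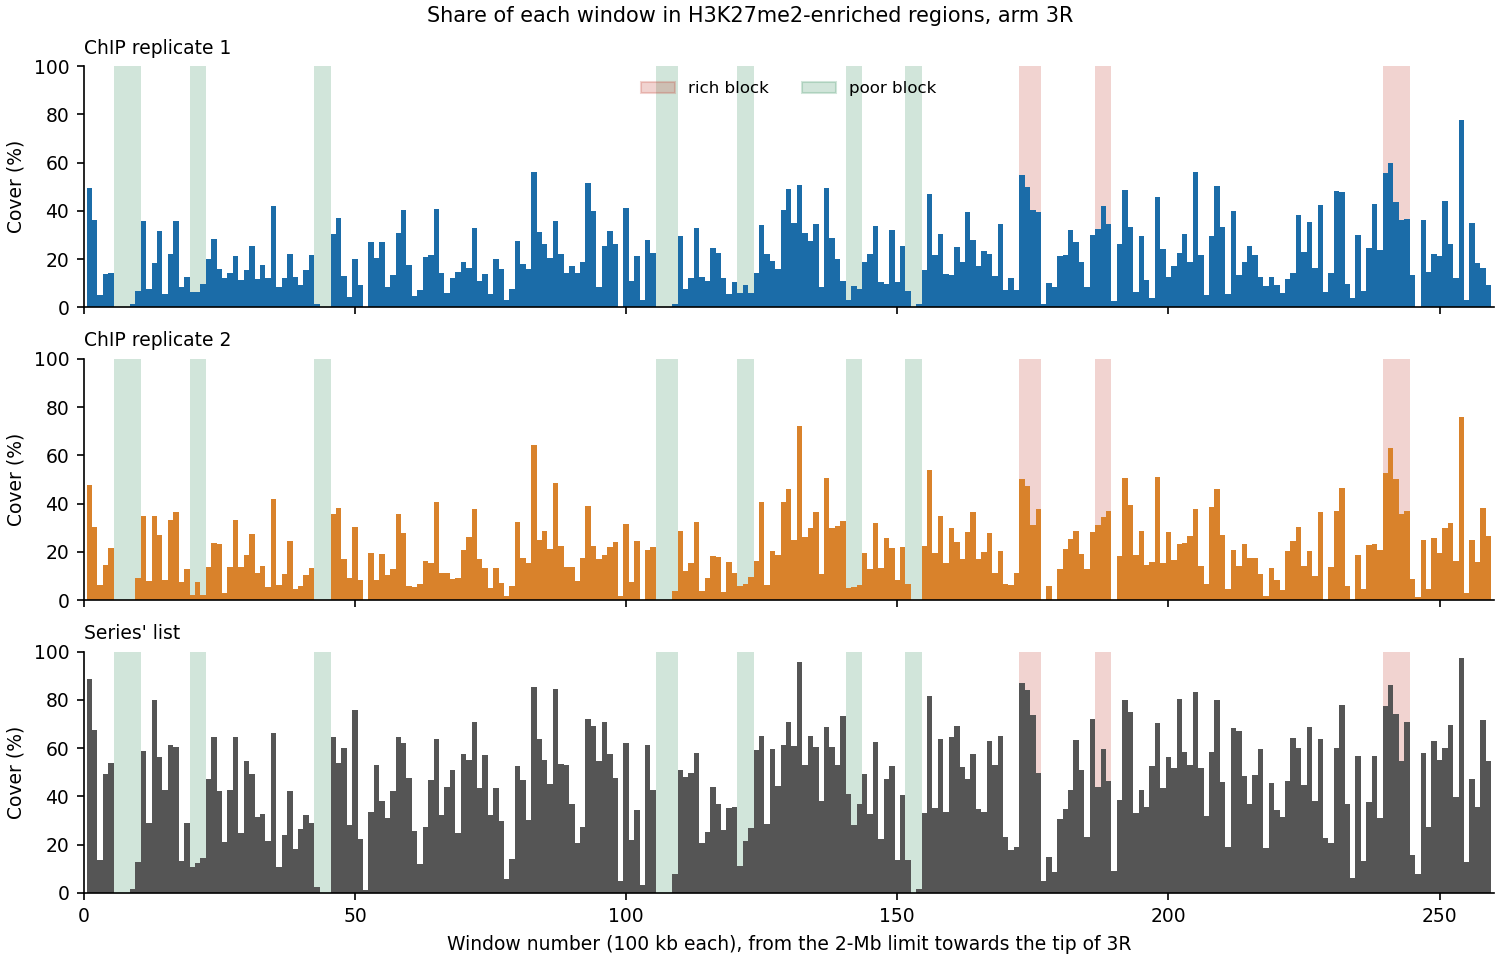
Share of each 100-kb window (%, y axis) that lay in enriched regions, for replicate 1, replicate 2 and the series' list, with windows numbered 1 to 259 from the 2-Mb limit towards the tip of 3R (x axis). Shading marks the 3 rich and the 7 poor blocks; the highest window reached 77.6% in replicate 1 and 76.0% in replicate 2, and 10 windows were at 0% in both.

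Cover was lowest in the section nearest the centromere and highest in the short last section, with no steady climb between. In sections of 5 Mb, the most proximal, which ended at 7000000, was 15.7% covered in replicate 1 and 15.9% in replicate 2. The next, from 7000001 to 12000000, was covered to 20.5% and 18.6%. The section from 12000001 to 17000000 was covered to 18.8% and 19.1%, and the one from 17000001 to 22000000 to 22.8% in each replicate. From 22000001 to 27000000 cover was 24.8% in replicate 1 and 21.4% in replicate 2, and the last 9 windows before the tip were covered to 26.97% and 29.2%. These 9 include the highest window of the arm, from 27300001, with a mean of 76.8%. That 1 window weighs heavily on the value of so short a section. Both replicates were thus higher in each section beyond 17000001 than in the most proximal section, by more than they differed from each other. The number of regions was 65.4 and 72.2 per Mb in the most proximal section and 87.0 and 88.2 per Mb from 17000001 to 22000000. Within every section windows still ranged widely. The most proximal section held window means from 0% to 48.8%, and the Spearman correlation of cover with position over the 259 windows was only 0.214 in replicate 1 and 0.201 in replicate 2. Windows of a library share its depth and its neighbours, so these correlations are descriptions with no p.

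A window was classed as rich where at least 30% was covered in both replicates and as poor where at most 10% was covered in both. There were 46 rich windows (17.8%) and 55 poor ones (21.2%), with 158 between. Replicate 1 alone put 66 windows at 30% or more and replicate 2 put 58. At 10% or less lay 67 windows of replicate 1 and 75 of replicate 2. No window was rich by one replicate and poor by the other.

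A window resembled its neighbour weakly. The correlation of cover between adjacent windows was 0.194 in replicate 1, 0.214 in replicate 2 and 0.286 in the series' list (258 pairs). At a distance of 500 kb it was -0.022, -0.0033 and -0.055 (254 pairs). Of the 258 neighbouring pairs, 14 joined 2 rich windows and 22 joined 2 poor ones, and 12 set a rich window directly beside a poor one.

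**Figure D2:**
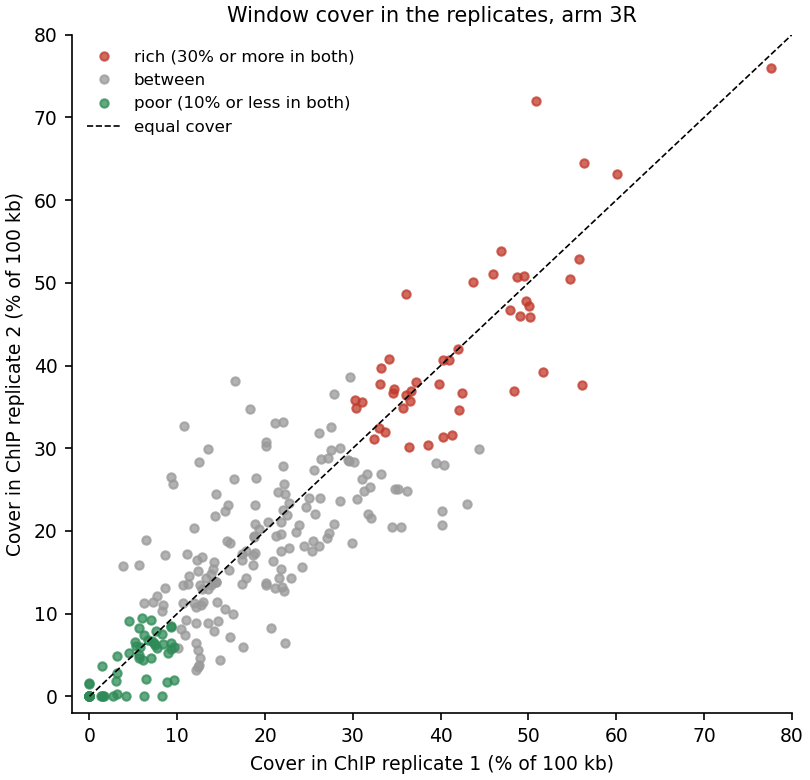
Cover of each of the 259 windows in replicate 1 (x axis, % of 100 kb) and replicate 2 (y axis, % of 100 kb), coloured by class, with the line of equal cover. The points lie along the line (Pearson r 0.889), the 46 rich windows at the upper right and the 55 poor ones at the lower left.

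Rich windows held more regions, and slightly longer ones. To keep the class and the description apart, windows were classed by one replicate and described in the other. The 66 windows at 30% or more in replicate 1 held 12.9 regions each in replicate 2, with a median length of 2135 bp. The 67 windows at 10% or less held 3.04 regions each, with a median length of 1694 bp. With the replicates exchanged, the rich windows held 12.8 regions each (median 2147 bp) and the poor ones 3.36 (median 1770 bp). The number of regions differed by a larger factor than their length did. No region of either replicate was shorter than 1301 bp, which limits how far a median length can fall.

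Median scores were slightly higher in rich than in poor windows. The score of a region is the authors' own and has no stated scale. From their values, all scores were log2 of a ratio of whole numbers minus a constant for each list, and the upper and lower terms are taken to be reads of ChIP and of input, which no label states. In windows classed by the other replicate, the median score was 0.62 in rich and 0.59 in poor windows of replicate 2, and 0.65 in rich and 0.62 in poor windows of replicate 1. The difference had the same sign in both and was not tested. Across windows, cover in replicate 1 and median score in replicate 2 had a Spearman correlation of 0.357 (240 windows), and cover in replicate 2 and median score in replicate 1 one of 0.233 (247 windows). The median counting error of a single member's score was at most 0.17 in replicate 1 and 0.16 in replicate 2. The SD of all scores on the stretch was 0.11 and 0.10. Scores were higher in longer regions, with a Spearman correlation across regions of 0.629 in replicate 1 and 0.575 in replicate 2, where regions are not independent replicates.

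Most rich windows stood alone. Of the 32 runs of rich windows, 24 were single windows and 5 were pairs, and 3 reached the length of a block, set at 3 adjacent windows. The longest rich block ran for 500 kb from 25900001 to 26400000. It was 46.5% covered in replicate 1 and 47.7% in replicate 2, with 63 and 72 regions, and 72.7% in the series' list. The rich block from 19200001 to 19600000 was covered to 46.2% and 41.7%, a mean of 43.9% ± 3.23 (SD, n = 2). The window after it had a mean cover of 0.66%, and the window before it 9.36%. The rich block from 20600001 to 20900000 was covered to 36.4% and 34.3%, and the window after it to a mean of 1.36%. All 3 rich blocks lay in the distal part of the arm, beyond 19 Mb, and 2 of them ended directly at sequence with almost no region.

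The window with the highest cover was not part of a block. It ran from 27300001 to 27400000, close to the tip, and was 77.6% covered in replicate 1, 76.0% in replicate 2 and 97.5% in the series' list. The next windows were 26000001 to 26100000, with 60.1% and 63.2%, and 15100001 to 15200000, with 50.9% and 72.0%. The mean of the window from 15100001, 61.5% ± 15.0 (SD, n = 2), rests on replicates that differed by 21.2 points. The window from 10200001 to 10300000 was covered to 56.3% and 64.5%, and the one from 25900001 to 26000000 to 55.8% and 52.8%. The other 5 of the 10 highest had means from 48.8% to 52.6%. They include the first window of the stretch, which ended at 2100000, with 49.7% and 47.8%, which lies in the section of lowest cover.

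Of 33 runs of poor windows, 7 were blocks, and these held 24 of the 55 poor windows. The 3 rich blocks held 12 of the 46 rich windows. The longest poor block ran for 500 kb from 2500001 to 3000000, with a cover of 1.73% in replicate 1 and 1.84% in replicate 2, made by 5 regions in each. The block from 12500001 to 12900000 was covered to 0.364% and 0.910%, by 1 and 2 regions. The block from 6200001 to 6500000 was 0.532% covered in replicate 1, by a single region, and held none in replicate 2. The block from 17100001 to 17400000 was covered to 2.71% and 2.27%. These 4 blocks were almost empty in each replicate. The series' list covered them to 2.89%, 1.91%, 0.855% and 5.02%.

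The other 3 poor blocks were thinly covered rather than empty. The block from 3900001 to 4200000 was 7.44% covered in replicate 1 and 3.80% in replicate 2. That from 14000001 to 14300000 was covered to 7.02% and 7.31%, and that from 16000001 to 16300000 to 6.50% and 5.46%. In the series' list they were covered to 12.5%, 19.9% and 35.3%. The last of these, poor by both replicates, stood nearest to the 43.5% that the series' list covered over the whole stretch.

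The 10 lowest windows were all at 0% in both replicates. They were 3 adjacent windows from 2500001 to 2800000, 2 from 6300001 to 6500000, 1 from 7100001 to 7200000, 3 from 12500001 to 12800000 and 1 from 17200001 to 17300000. The series' list also held nothing in 9 of them, and covered the window from 7100001 by 1.24%. A further 10 windows were at 0% in only 1 replicate.

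Stretches with no region in either replicate showed the empty sequence base by base. The longest spanned 418446 bp, from 2471599 to 2890044, and the next 388400 bp, from 12450561 to 12838960. They were followed by 300287 bp from 6203561 to 6503847, 286828 bp from 17111701 to 17398528 and 209610 bp from 7032347 to 7241956. The other 5 of the 10 longest ran from 111411 to 144162 bp and began at 3927401, 8049830, 9659642, 11776817 and 2176168. Of these, the stretch from 9659642 to 9786619 was also free of any region in the series' list. Stretches of 50 kb or more numbered 52 and held 20.2% of 3R euchromatin, against a median stretch of 2342 bp. Of the 10 longest, 8 lay proximal to 12 Mb, and an empty stretch means only that no region was listed there, since which bases reads can map to is not recorded.

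Fewer than 10 of 20 edges of the longest gaps were placed within 1 kb by both replicates. The 10 longest gaps of replicate 1 have 20 edges. Going outwards from the centre of the gap, the first covered base of replicate 2 lay within 1 kb of the edge at 9 of them and within 5 kb at 13. The gaps of replicate 2 had 9 edges within 1 kb and 11 within 5 kb in replicate 1. The largest shift was 90826 bp, at the distal edge of the gap that begins at 2471599 in replicate 2. That gap ended at 2890044 in replicate 1 and at 2980870 in replicate 2.

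Mean cover was higher in the first 10 kb outside an edge than in any bin inside it. In replicate 2, no region lay between 10 and 50 kb inside the edges of the replicate 1 gaps. Mean cover was 3.65% in the last 10 kb inside the edge and 34.7% in the first 10 kb outside. From 10 to 100 kb outside, the bins of 10 kb had mean covers between 13.9% and 25.9%. In replicate 1, around the gaps of replicate 2, the bins from 50 to 10 kb inside the edge were not empty, with mean covers of 1.34%, 1.07%, 4.19% and 3.31%, from regions at 2 or 3 edges each. Cover was 11.2% in the last 10 kb inside the edge and 32.4% in the first 10 kb outside. From 10 to 100 kb outside it was between 19.0% and 30.5%, so that the bins with the highest cover came close to the first. An edge is by definition the border of a region in the replicate that set it, which adds to the first bin outside wherever the replicates share that region.

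**Figure D3:**
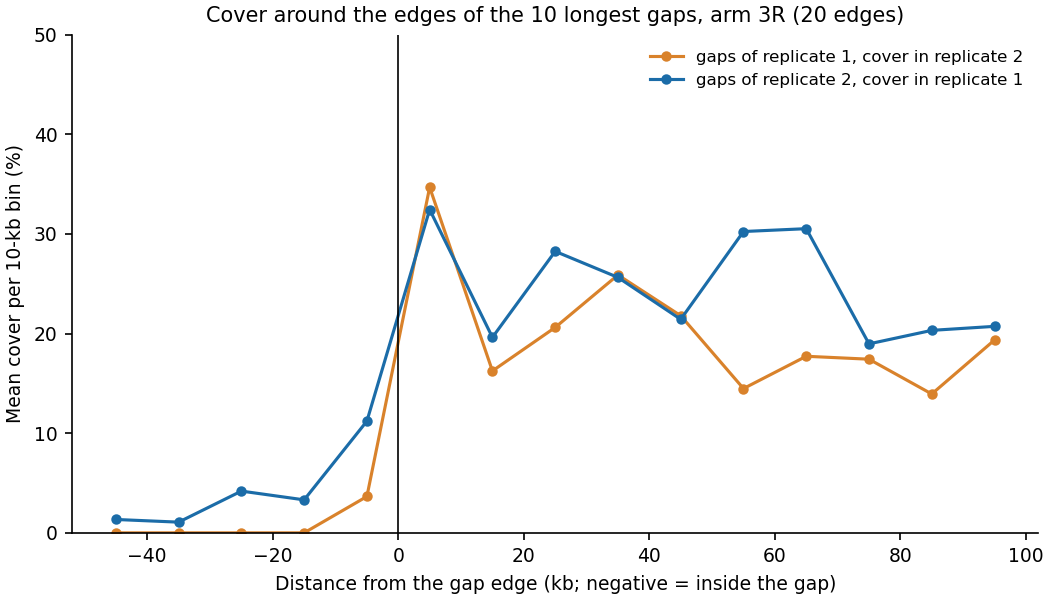
Mean cover per 10-kb bin (%, y axis) against distance from the edge of a gap (kb, x axis, negative inside the gap), over the 20 edges of the 10 longest gaps of one replicate, measured in the other replicate. Cover is 3.65% and 11.2% in the bin inside the edge and 34.7% and 32.4% in the bin outside.

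Domains were defined as stretches of 10 kb or more covered in both replicates after gaps of up to 2 kb were bridged in each. There were 56, with a median length of 15458 bp, and 12 were 20 kb or longer. The count depends on the definition: it was 24 with gaps of up to 1 kb bridged, 143 with gaps of up to 5 kb, 204 with a minimum of 5 kb, 130 from replicate 1 alone and 124 from replicate 2 alone. Together they held 922 kb, or 3.56% of 3R euchromatin, and 25.2% of all bases listed in both replicates. Regions filled the domains to a median of 87.2% in replicate 1 and 88.3% in replicate 2, in a median of 3.5 and 3.0 regions. A high fill in both follows in part from the definition, so it is no measure of agreement. Of the 56 domains, 45 met a single region of the series' list.

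The longest domain spanned 38562 bp, from 10233405 to 10271966. Regions filled 86.4% of it in replicate 1 and 87.9% in replicate 2, with 7 regions in each. The second, from 25106615 to 25138900 (32286 bp), was the most densely filled of the 10 longest, with 97.7% and 98.4%. It began 2.17 kb beyond the end of another domain, the closest spacing of any pair. This is only slightly more than the 2 kb bridged, so the separate ranks of these 2 domains depend on that setting. The series' list held both in 1 region, from 25077643 to 25139041. The third ran from 27358539 to 27387348 (28810 bp) and was filled to 93.1% and 92.1%. It lay in the window of highest cover. The fourth, from 26315474 to 26342357 (26884 bp), lay in the longest rich block and was filled to 89.2% and 87.2%.

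The remaining 6 of the 10 longest spanned 21319 to 23828 bp. Those from 19521798, 15622764 and 15198891 were filled to 89.8% and 88.6%, 88.1% and 86.8%, and 81.6% and 91.0% in replicates 1 and 2. Those from 24720732, 25082400 and 20827304 were filled to 91.3% and 95.8%, 98.0% and 90.05%, and 97.0% and 94.8%. In all of the 10 longest, both replicates were above 80%. The highest mean scores (weighted by length) among these belonged to the domain from 25082400 to 25104440, with 1.02 in replicate 1 and 0.87 in replicate 2.

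**Figure D4:**
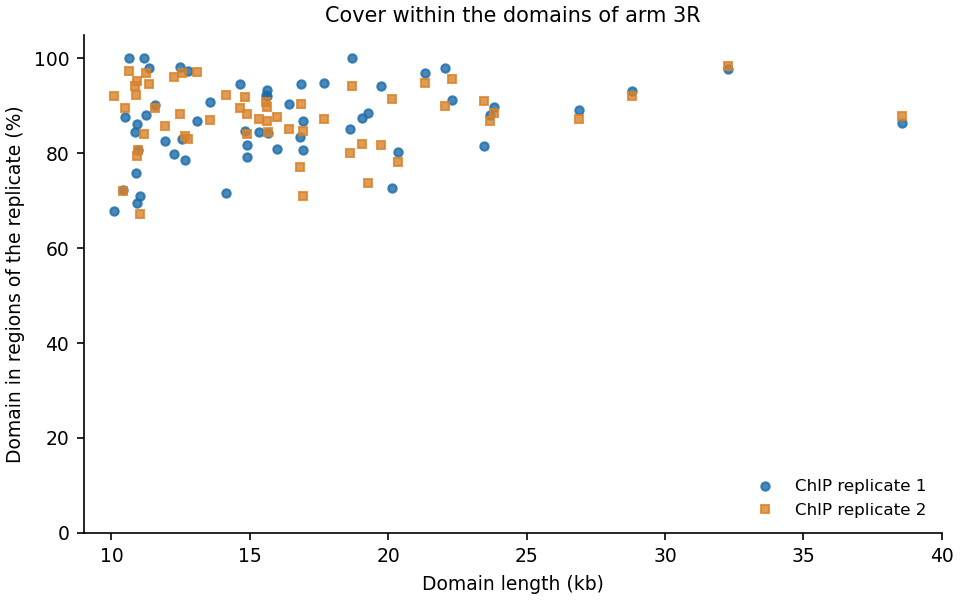
Share of each of the 56 domains that lay in regions of replicate 1 and replicate 2 (%, y axis) against domain length (kb, x axis). Both replicates fill every domain to more than 67%, which follows in part from the definition of a domain. The longest domain, of 38.6 kb, is filled to 86.4% and 87.9%.

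Domains lay in every section of the arm but were unevenly spaced. The midpoints of the 56 domains fell in 43 windows. The 5 full sections of 5 Mb held 6, 11, 9, 14 and 11 domains from the most proximal to the most distal. The last 0.9 Mb, a much shorter stretch, held 5. The shortest distance between neighbouring domains was 2.17 kb and the median 231 kb. The longest distance was 1918368 bp, from 15646436 to 17564803. Rich windows held 44 of the 56 domain midpoints and poor windows none. A domain adds to the cover of its own window, so this count follows in part from the definitions.

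The replicates shared 2.84 Mb of the 7.68 Mb that either covered, a Jaccard index of 0.37. Replicate 2 listed 52.8% of the bases in replicate 1, and replicate 1 listed 55.2% of the bases in replicate 2. Counting any overlap of 1 bp or more, 1326 of the 2035 regions of replicate 1 (65.2%) and 1375 of the 2080 of replicate 2 (66.1%) met the other list. With a reciprocal overlap of 50%, the shares were 34.0% and 33.2% (691 regions in each).

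Longer regions were found again more often. Of the regions of replicate 1 up to 1500 bp long, 43.9% overlapped replicate 2 (exact 95% binomial interval 39.2 to 48.6), and of those over 5 kb, 97.1% did (93.4 to 99.1, 174 regions). In replicate 2 the shares were 48.5% (43.8 to 53.2) and 98.5% (94.8 to 99.8, 137 regions). A long region meets another by its length alone. The share of bases found in the other replicate was 32.7% and 70.1% in the shortest and longest class of replicate 1. In those of replicate 2 it was 36.7% and 76.0%. This share is not free of length either. Borders of regions that met one to one differed by medians of 574 and 547 bp, a larger part of a short region. With regions ranked by score and split into 4 parts of about equal size, the top part overlapped in 78.2% and 82.9% of cases, and the bottom part in 58.3% of cases in each replicate. The intervals cover counting only, and neighbouring regions are not independent.

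**Figure D5:**
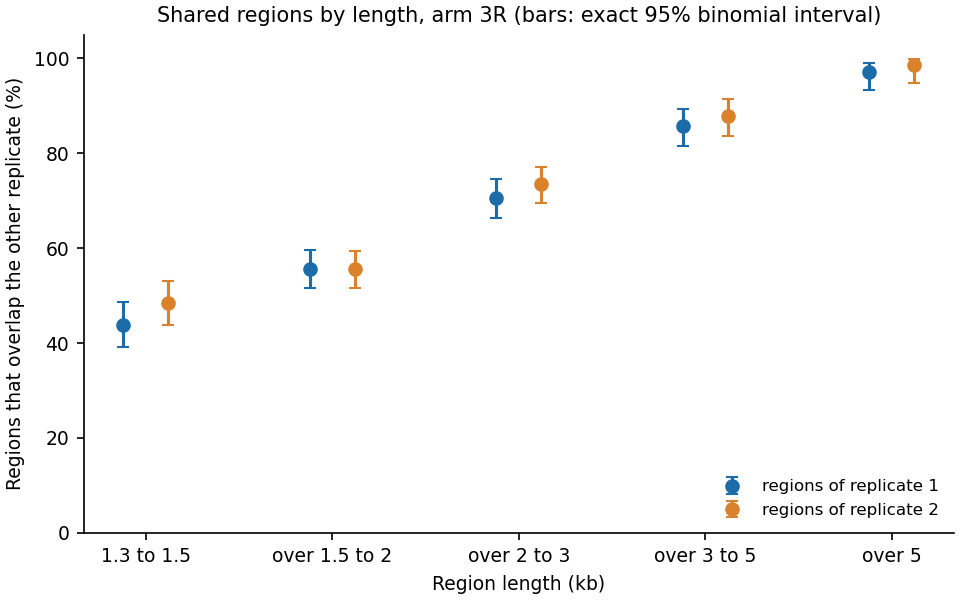
Share of the regions of each replicate that overlap the other by at least 1 bp (%, y axis) in 5 classes of region length (kb, x axis), with exact 95% binomial intervals as bars. The share is 43.9% and 48.5% in the shortest class and 97.1% and 98.5% in the longest.

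Where a region of one replicate met exactly 1 region of the other, the borders were close but seldom equal. There were 785 such pairs. Starts differed by a median of 574 bp and ends by 547 bp, and both ends lay within 500 bp of each other in 217 pairs (27.6%). There was no general shift, with median offsets of 26 bp at the starts and -5 bp at the ends (replicate 2 minus replicate 1). Scores in the pairs averaged 0.60 in replicate 2 and 0.65 in replicate 1, and correlated with a Pearson r of 0.364 and a Spearman rho of 0.349. The score difference had an SD of 0.11, and its median counting error was at most 0.24. In 94.9% of pairs the difference lay within 1 such error of the mean difference, with the error at its upper limit. That limit was mostly well above the SD of the differences, so this share does not measure how well the scores match.

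Window cover was also compared, by a measure that cannot be ranked against the overlap of regions. Cover correlated with a Pearson r of 0.889 and a Spearman rho of 0.875 over the 259 windows. The value of r depends on window size, and was 0.751 at 10 kb and 0.916 at 500 kb. The covers differed by at most 5 points in 160 windows (61.8%) and by more than 10 points in 36 (13.9%). Replicate 1 was higher in 147 windows and replicate 2 in 102. The mean difference was -0.90 points (replicate 2 minus replicate 1). Differences in adjacent windows were almost unrelated, with a correlation of 0.104 over 258 pairs. By section, r ran from 0.862 over the last 9 windows to 0.915 in the most proximal section.

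The windows in which the replicates differed most lay in both directions. The largest difference was in the window from 15900001 to 16000000, with 32.7% in replicate 2 and 10.8% in replicate 1. The next were 27700001 to 27800000, with 38.1% in replicate 2 and 16.5% in replicate 1, and 15100001 to 15200000, given above. Replicate 1 was higher from 25700001 to 25800000, with 23.3% in replicate 2 against 43.0% in replicate 1. It was also higher from 23100001 to 23200000, with 20.7% in replicate 2 against 40.1% in replicate 1. Of the 10 windows that differed most, 6 were higher in replicate 2 and 4 in replicate 1. Both windows between 27700001 and 27900000 were higher in replicate 2, by 21.6 and 17.3 points.

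The series' list filled in sequence between the replicates' regions. Nearly all sequence listed in a replicate was inside it, 97.4% for replicate 1 and 98.8% for replicate 2. Its own sequence was 25.2% common to both replicates, 41.1% listed by only 1 and 33.6% listed by none. The 937 regions (30.6%) that met both replicates had a median score of 0.51 and were long, with a median of 5510 bp. The 1128 (36.8%) that met none had a median score of 0.40 and a median of 1402 bp. Per window, the cover of the series' list followed the mean of the replicates with a Spearman rho of 0.867 and a Pearson r of 0.856. This is partly given, since the list contains nearly all of their bases. Rich windows were covered to a mean of 69.7% in the series' list, those between to 45.9% and poor windows to 14.7%.

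The longest regions of the series' list were filled by the replicates to different extents. The longest, of 108653 bp from 27288888, was covered to 78.9% and 79.1% by the replicates. The next, from 25077643 to 25139041 (61399 bp), was almost filled, with 94.3% in replicate 1 and 87.7% in replicate 2. The region from 2083991 to 2135303 (51313 bp) was covered to only 57.1% in replicate 1 and 54.0% in replicate 2. That from 27764346 to 27810641 (46296 bp) was covered to 29.8% and 78.1%. In the regions from 10231838 (46668 bp), 9097978 (33236 bp) and 6642908 (31925 bp) both replicates covered between 73.6% and 84.0%.

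Set beside arms 2L and 3L without their centromere-proximal 2 Mb, the values for 3R were of the same order. Mean cover was 20.3% ± 0.635 on 3R, 17.6% ± 0.247 on 2L and 20.1% ± 0.126 on 3L (SD, n = 2). Rich windows made up 17.8% of 3R (46 of 259), 11.4% of 2L (24 of 210) and 14.2% of 3L (32 of 225). Poor windows made up 21.2% of 3R, 22.4% of 2L and 21.3% of 3L. The Jaccard index was 0.37, 0.326 and 0.360, and window cover correlated with an r of 0.889, 0.851 and 0.828. The arms come from the same 2 libraries and no test of these differences was made, so none of them is taken as particular to 3R.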

How the data were processed

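Regions of significant enrichment were listed by the authors on FlyBase release 5, per the file headers, in 1 list per ChIP replicate and 1 for the series. Per the submitters' processing notes, Bowtie 0.12.7 was used. How regions were called, at which threshold, and how the series' list combines replicates is not given in the sources used here. The score of each region is as deposited by the authors and has no stated scale. No list belongs to an input. Library totals are not in the lists, so the depth of each library is unknown.

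Cover was counted base by base in Python 3.11.15 (numpy 2.4.6, scipy 1.17.1), with windows of 100 kb from 2000001 and the last 5053 bp left out of the windows. Scores were compared with log2 of whole-number ratios (relative difference up to 1e-12). The constant of each list was the one that made the terms smallest. The terms are in lowest terms, so counting errors derived from them are upper limits, and they cover counting only. Interval arithmetic and decoding were tested on simulated data. No test between groups was made, since there is 1 group of 2 replicates. Named windows, blocks, gaps, domains and regions are the 10 highest, lowest, longest or most different of each kind. The stretch, classes and settings were chosen with earlier results of these data known. Marker genes of head tissue were not analysed here.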

Additional observations from a re-analysis of the deposited data

How the results depend on the processing

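No paired analysis was possible because only the ChIP samples have lists, and they form 1 group. The cover of 20.3% was 43.5% in the series' list, 12.9% with scores above the median of each list, which keeps fewer regions by construction, and 20.4% on the whole arm. The median window, 18.1%, was 17.0% with windows of 50 kb, 18.6% with windows of 200 kb and 45.7% in the series' list. With rich set at 40% or more and poor at 5% or less, rich windows fell to 7.34% of windows and poor ones to 8.88%. With windows of 200 kb, poor windows were 12.4%. Without one replicate, cover was 19.9% to 20.8%, and the other summaries of windows stayed within 1.5 times. The number of domains depended on the definition. The 56 became 24 with gaps of up to 1 kb bridged and 143 with gaps of up to 5 kb, 204 at a minimum of 5 kb and 12 at a minimum of 20 kb. The series' list held 172 regions of 10 kb or more, and without one replicate there were 124 to 130 domains. At 1 kb, 24 of the 56 domains shared a base with a domain, and at 5 kb all 56 did. The Jaccard index of 0.37 was 0.299 with scores above the median and 0.389 after merging across 1 kb. Shared regions, 65.6% over both lists, were 33.6% at a reciprocal overlap of 50% and 52.9% with scores above the median. The last setting removes regions from both lists, so fewer partners remain to be met. It does not show that high-scoring regions were shared less. Against the full other list, the top score part overlapped in 78.2% (replicate 1) and 82.9% (replicate 2) of cases, and the bottom part in 58.3% in each. The window correlation of 0.889 was 0.751, 0.860, 0.901 and 0.916 with windows of 10, 50, 200 and 500 kb, and 0.822 with scores above the median.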

Other observations

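The highest-scoring regions were seen unevenly by the replicates. The top score of replicate 1, 1.07, belonged to a region of 3279 bp from 16998861 to 17002139, with terms in the ratio of 592 to 215. Replicate 2 listed no base of it, and the series' list covered it fully. Replicate 2 also listed no base of the region ranked 10 in replicate 1, with a score of 0.96, from 16396568 to 16400256, of which the series' list covered 91.4%. The other 8 of the 10 were covered by replicate 2 to between 57.1% and 100%.

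In replicate 2, 3 of the 10 highest scores lay within 10 kb of each other. They ran from 3520979 to 3522553 (score 3.01), from 3523465 to 3525278 (0.90) and from 3526678 to 3529117 (0.98). Replicate 1 covered 0%, 0% and 86.0% of them. The terms were 8 to 1, 67 to 36 and 226 to 115, and the counting error of the first was up to 1.53. The other 7 of the 10 were covered by replicate 1 to between 90.5% and 100%.

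In the series' list, scores of 0.84 to 2.40 made up the top 8. Their regions spanned 1001 to 1115 bp, had lower terms of 1 to 37 and met no region of a replicate. Ranks 9 and 10 were a region of 25975 bp from 24718334 and one of 4951 bp from 25992265, which both replicates covered to at least 82.2%.

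The windows in which the series' list held most sequence that neither replicate listed were looked up after the values were seen. They were 22100001 to 22200000 with 41.2% of the window, 23200001 to 23300000 with 40.7% and 23600001 to 23700000 with 39.2%, against a median of 13.7% over 259 windows. In these 3 the replicates covered 22.7% and 23.3%, 13.3% and 14.3%, and 12.7% and 11.0%. The fourth, from 16000001 to 16100000, was a poor window, with 3.09% and 4.91% in the replicates and 41.2% in the series' list. The cause was not tested.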
